A study of Mus musculus with 12 samples.

Results

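The genes described here are 9 genes of the insulin signalling chain of the liver, measured in 12 livers of mice fasted for 16 h. They were chosen by symbol, and all 9 were found among the 41708 genes of the count table: the receptor Insr, its substrates Irs1 and Irs2, its inhibitor Grb14, the phosphoinositide 3-kinase (PI3K) subunit Pik3r1, the kinases Akt1 and Akt2, and the transcription factors Foxo1 and Foxo3. The control group held 5 mice of genotype Ube4a flox/flox, and the other group held 7 mice with the same floxed alleles and Albumin-Cre, which deletes Ube4a in hepatocytes (Ube4a LKO). Ube4a encodes a ubiquitin ligase. The background was C57BL6/J, and the control label names no Cre, so an effect of the recombinase and one of the deletion cannot be told apart. Albumin-Cre acts in hepatocytes, and Ube4a in other liver cells of LKO mice was not measured separately. Age and sex are not given in the labels used here.

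Insulin binds its receptor, a tyrosine kinase that phosphorylates the substrates IRS1 and IRS2. These recruit PI3K, whose lipid product brings AKT to the membrane, where it is activated. In liver, active AKT phosphorylates FOXO1 and FOXO3 and keeps them out of the nucleus. During a fast insulin is low, FOXO factors enter the nucleus, and genes such as Igfbp1, Pck1, G6pc and Irs2 itself are transcribed. Much of this control acts on phosphorylation, which mRNA levels do not show.

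Each library held 13399874 to 16525053 counts. Levels are given for each gene as CPM, counts scaled to a common library size by the trimmed mean of M values (TMM). Ube4a measured 120 to 152 CPM in the flox livers and 23.2 to 34.0 CPM in the LKO livers, lower in 7 of 7 than in any flox liver. Hepatocyte markers (6 matched of 8 listed) summed to 79849 to 107310 CPM of total counts in all livers. Markers of pancreatic acinar cells (4 matched of 5 listed) summed to at most 8.04 CPM, and 3 listed ones had 0 counts in every liver. Among the controls, replicates 4 and 5 differed from the remaining 10 livers: the 8 neutrophil markers summed to 282 and 449 CPM there and to at most 1.63 CPM elsewhere. Each of the 8 macrophage markers and 6 endothelial markers was also higher in both of these livers than in any other. The macrophage sum was 430 and 610 CPM in the pair and 32.2 to 200 CPM elsewhere. Results are therefore also given without this pair. In whole liver, fewer cells of a type and less RNA per cell cannot be told apart.

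None of the 9 genes passed the test between LKO and flox livers. Fold changes are LKO over flox, from edgeR's quasi-likelihood test over all 12615 genes that passed a low-count filter. The p-values were adjusted over all of them (Benjamini-Hochberg), with a threshold of 0.05. All 9 genes passed the filter, on 214 to 3510 counts per library, and 0 of 9 were called, where 0.00793% of all tested genes were (Ube4a alone). At an unadjusted p under 0.05 there was 1 of the 9, Akt1, where 7.64% of all genes lay under that level. Fold changes were below 0 for 7 of the 9 genes, where 51.7% of all genes were. The median of the 9 on the log2 scale was -0.04, beside -0.0060 over all genes tested, and the values ran from -0.26 for Irs2 to 0.13 for Pik3r1. Without flox replicates 4 and 5, 0 of 9 were called either (0.00781% of all genes), 0 of 9 lay under the unadjusted level (5.27% of all genes), and the median was -0.06. DESeq2, run as an alternative, called 0 of 9, and 0.254% of the genes to which it gave an adjusted p. With all livers, the CPM of the groups overlapped for each of the 9 genes, and 0.484% of all genes had groups that did not overlap.

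**Figure D1:**
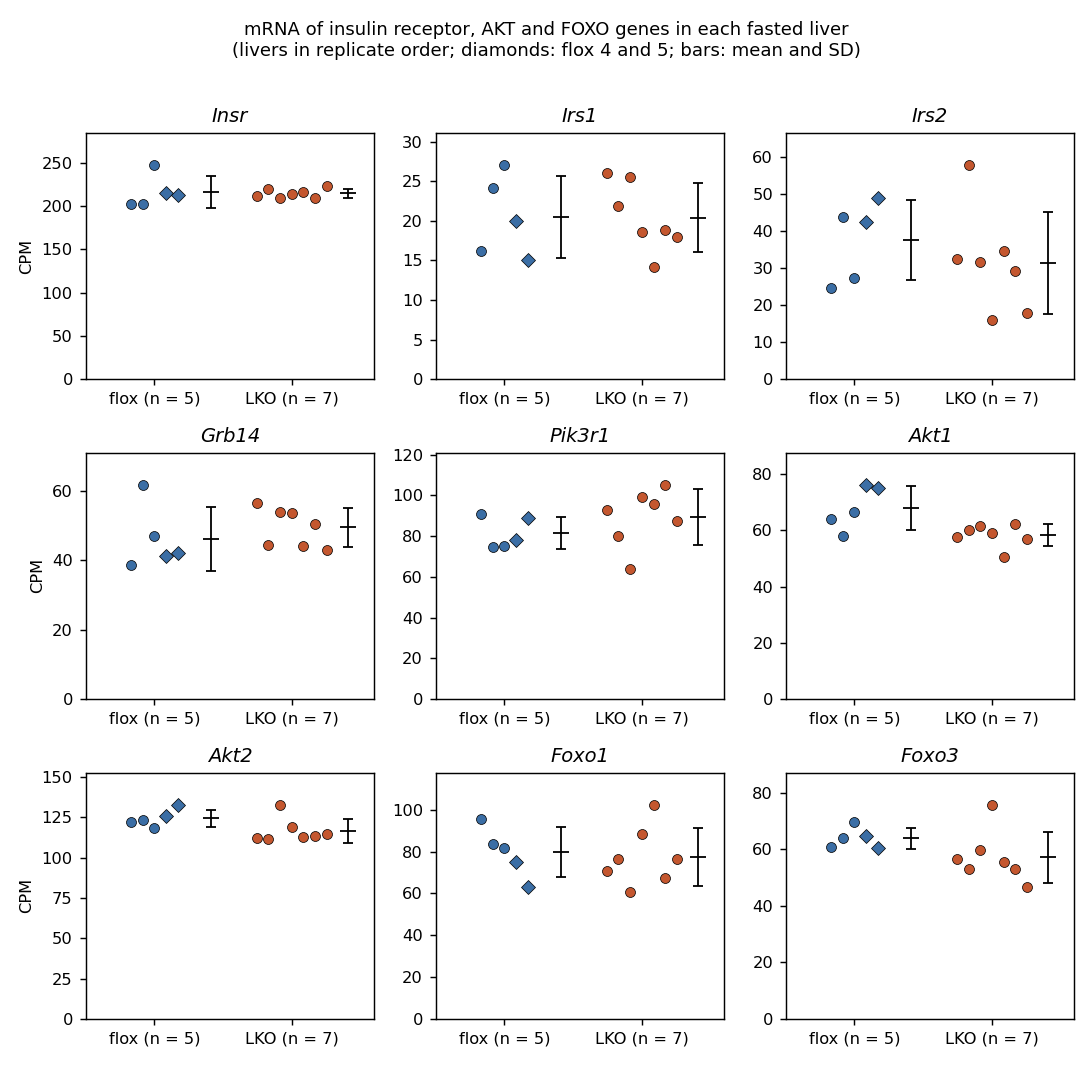
CPM of each of the 9 genes (vertical axes, starting at 0) in the 5 flox livers (blue) and the 7 LKO livers (orange), with flox replicates 4 and 5 as diamonds and the mean and SD as bars. The groups overlap in every panel, the Insr points of the LKO livers lie close together between 209 and 223 CPM, and the Irs2 points spread from 15.9 to 57.7 CPM.

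**Figure D2:**
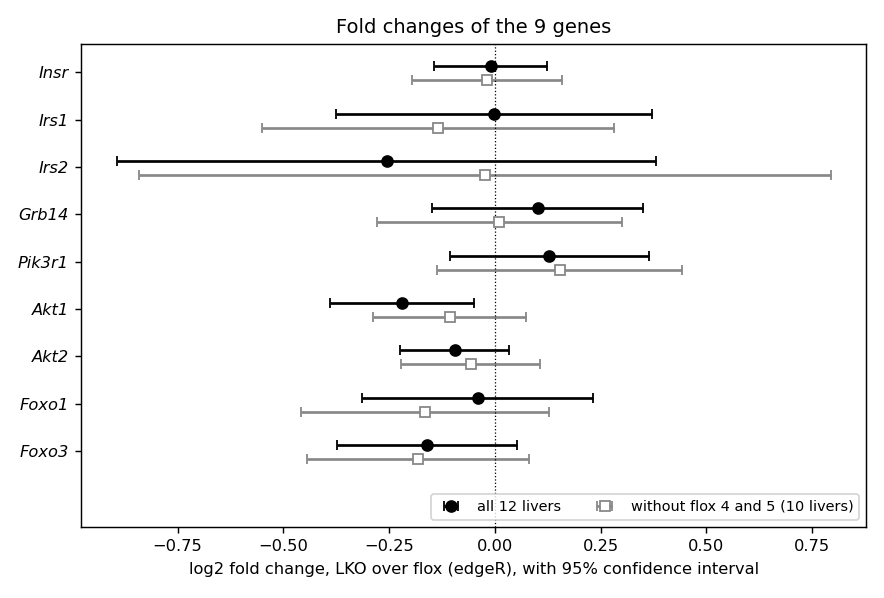
Log2 fold change of LKO over flox livers (horizontal axis) with its 95% confidence interval for each gene, from all 12 livers (filled circles) and without flox replicates 4 and 5 (open squares). With all livers the interval of Akt1 lies below 0, from -0.39 to -0.05, and it spans 0 without the pair. The intervals of the other 8 genes span 0 in both fits.

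Levels were compared between genes as FPKM, fragments scaled to gene length and library size, from the authors' deposited table. Insr was the highest of the 9 at 22.3 ± 1.24 FPKM (SD, n = 12), which lies above 83.9% of the 11484 protein-coding genes tested. Akt2 followed at 16.8 ± 1.08 FPKM and Akt1 at 15.7 ± 1.91 FPKM. Foxo1 measured 9.02 ± 1.46 FPKM, Pik3r1 8.51 ± 1.18 FPKM, Irs2 8.38 ± 3.08 FPKM and Foxo3 7.89 ± 1.05 FPKM. Grb14 measured 6.65 ± 0.97 FPKM, and Irs1 was the lowest at 2.22 ± 0.48 FPKM, above 34.6% of the coding genes. Insr exceeded Akt2, Akt1 exceeded Foxo1, and Grb14 exceeded Irs1 in 12 of 12 livers. The middle of the order was not fixed, since Foxo1 exceeded Pik3r1 in 9 livers, Pik3r1 exceeded Irs2 in 7 and Irs2 exceeded Foxo3 in 7.

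The receptor gene Insr was among the steadiest genes of these livers. Insr (MGP_C57BL6NJ_G0033792) lies on the minus strand of chromosome 8 from 55684 to 192168, in the coordinates of the table. Its gene identifiers are those of the C57BL/6NJ strain, while the submitters' processing notes name the build GRCm39. Its level was 203, 202, 248, 216 and 213 CPM in flox replicates 1 to 5, and ran from 209 to 223 CPM with a median of 214 CPM in the 7 LKO livers. Flox replicate 3 was the highest liver, and every LKO liver lay within the range of the flox livers. With all livers the log2 fold change was -0.01 (95% confidence interval -0.14 to 0.12, adjusted p = 0.979 in edgeR), so the interval reached from 0.905 to 1.09 times the flox level. The SD of log2 CPM between livers of the same group was 0.080 for Insr, where the median over the 7527 genes above 10 CPM was 0.17 and 3.0% of these genes varied less. Without flox replicate 3 the fold change of Insr had the opposite sign, at 0.04, and without flox replicates 4 and 5 it was -0.02.

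Grb14 encodes an adaptor that binds the activated insulin receptor and inhibits its kinase. Its level was 38.5, 61.7, 47.0, 41.1 and 41.9 CPM in flox replicates 1 to 5, and ran from 43.0 to 56.5 CPM with a median of 50.3 CPM in LKO livers. Flox replicate 2 was the highest of all livers, and the other 4 flox livers lay between 38.5 and 47.0 CPM. LKO over flox, the log2 fold change was 0.10 (95% confidence interval -0.15 to 0.35, adjusted p = 0.857 in edgeR). Leaving out flox replicate 2 gave 0.22, leaving out flox replicate 1 gave 0.039, and the value without replicates 4 and 5 was 0.010. Relative to its receptor in the same liver, the log2 ratio of Grb14 to Insr was -2.25 ± 0.30 (SD, n = 5) in flox and -2.13 ± 0.19 (SD, n = 7) in LKO livers. It was 1 of 4 ratios compared by exact permutation of the group labels, two-sided, over every split into 5 and 7. The difference was 0.12 (exact permutation p = 0.412, and 0.447 adjusted over the 4 ratios), with 4 of 7 LKO livers above the flox mean. Without flox replicate 2 alone the difference was 0.25, with an adjusted p of 0.0485 in the exact permutation test, and without flox replicates 4 and 5 it was 0.041. Flox replicate 2 held the highest ratio of its group (-1.71), and no other single liver left out gave a pass. That p was adjusted over the 4 ratios and not over the livers left out.

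The substrate Irs2 was the most variable of the 9 genes, and its paralog Irs1 came next. Irs2 measured 24.6, 43.8, 27.3, 42.4 and 48.9 CPM in flox replicates 1 to 5. The LKO livers ran from 15.9 CPM in replicate 4 and 17.7 CPM in replicate 7 to 57.7 CPM in replicate 2, with a median of 31.7 CPM. The LKO group thus held both the highest and the lowest livers, which differed by 3.63 times. The SD of log2 CPM within groups was 0.56, larger than for 96.3% of genes above 10 CPM. Without flox replicates 4 and 5 this SD was 0.58. The log2 fold change of Irs2 was -0.26 (95% confidence interval -0.89 to 0.38, adjusted p = 0.857 in edgeR). It was -0.02 without the pair, -0.48 without LKO replicate 2 and -0.15 without flox replicate 5. The spread left the interval wide, from 0.538 to 1.30 times the flox level.

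Irs1 measured 16.1, 24.2, 27.1, 19.9 and 15.1 CPM in flox replicates 1 to 5. In LKO livers it ran from 14.1 CPM in replicate 5 to 26.0 CPM in replicate 1, with a median of 18.8 CPM. The groups covered nearly the same range, and the log2 fold change was -0.0016 (95% confidence interval -0.37 to 0.37, adjusted p = 0.998 in edgeR). Without flox replicates 4 and 5 it was -0.13, and it took either sign when single livers were left out, from -0.10 without flox replicate 5 to 0.12 without flox replicate 3. A gene on the opposite strand, Gm9747, overlaps 2822 bases of Irs1 in the annotation of the table and had 0 counts. No source used here gives the strand setting of the counting, so reads of Irs1 and Gm9747 from that stretch cannot be told apart. Of the 9 genes, 6 were overlapped by 8 annotated genes in all, none with more than 12 counts over the 12 livers. These low counts do not show whether reads of the shared stretches were counted for either gene. The overlaps include 2169 bases of Pik3r1 and 2012 bases of Foxo1 by genes on the same strand. Levels per length of all 6 overlapped genes (Insr, Irs1, Irs2, Pik3r1, Akt1 and Foxo1), and the ratios that include them, carry this limit.

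The ratio of the substrates had an SD between livers of each genotype that was larger than the difference between the genotypes. Per length, Irs2 mRNA was 1.95 to 7.38 times Irs1 mRNA, with the lowest ratio in LKO replicate 4 and the highest in flox replicate 5. The log2 ratio of Irs2 to Irs1 in CPM was 0.85 ± 0.62 (SD, n = 5) in flox and 0.53 ± 0.62 (SD, n = 7) in LKO livers. The difference of -0.32 did not pass the exact permutation test (p = 0.384, adjusted p = 0.447), and 2 of 7 LKO livers lay above the flox mean. Without flox replicates 4 and 5 it was 0.038, on the other side of 0.

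The windows upstream of Irs2, Irs1 and Igfbp1 are shown, and each holds a match to the motif CAAAACA. Irs2 and Igfbp1 are FOXO targets whose levels were compared across livers, and Irs1 is the paralog set beside Irs2. Pck1, a FOXO target also compared with Irs2, had no match in its window, which is not printed. The windows printed therefore do not stand for all genes compared. Igfbp1 carries the classical insulin response element, a FOXO1 site whose core is CAAAACA. Each run is the 250 bases before the RefSeq gene start in GRCm38.p6, 5′ to 3′ on the gene's strand, with matches to CAAAACA or its reverse complement TGTTTTG in capitals.
Igfbp1, chr11:7197537-7197786, plus strand: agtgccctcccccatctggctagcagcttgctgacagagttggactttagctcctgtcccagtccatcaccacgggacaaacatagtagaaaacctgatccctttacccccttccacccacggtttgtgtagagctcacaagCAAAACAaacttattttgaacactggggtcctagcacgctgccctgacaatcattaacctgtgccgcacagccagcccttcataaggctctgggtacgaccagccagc
Irs2, chr8:11008930-11009179, minus strand: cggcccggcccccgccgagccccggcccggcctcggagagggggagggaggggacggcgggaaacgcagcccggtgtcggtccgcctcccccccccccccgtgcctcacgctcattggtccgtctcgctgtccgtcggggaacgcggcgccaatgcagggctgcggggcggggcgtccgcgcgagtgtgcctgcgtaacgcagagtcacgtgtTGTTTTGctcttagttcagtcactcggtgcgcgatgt
Irs1, chr1:82291440-82291689, minus strand: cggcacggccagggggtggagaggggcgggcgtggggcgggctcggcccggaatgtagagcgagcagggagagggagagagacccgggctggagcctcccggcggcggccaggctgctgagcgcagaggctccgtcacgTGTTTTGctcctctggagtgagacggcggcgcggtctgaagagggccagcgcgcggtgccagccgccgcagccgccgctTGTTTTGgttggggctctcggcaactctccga
The match begins 108 bases before the start in Igfbp1 and 37 bases before it in Irs2, and Irs1 holds matches 111 and 32 bases before its start. CAAAACA or its reverse complement occurs in 5.56% of all 32851 windows of this length in the table. The other FOXO core searched, GTAAACA with its reverse complement TGTTTAC, occurs in 3.17% and in none of these 3 windows. Sites of the 2 motifs can share bases, and either was found in 8.51% of windows. Of the 9 genes, 8 had an entry, with 13 start sites, and 3 genes had a match to either motif: Irs1, Irs2 and, by TGTTTAC at 1 of its starts, Akt1. G6pc holds TGTTTTG 174 bases before its start, and no match was found in the window of Pck1. A match is a description of these letters and not of binding.

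Igfbp1, a secreted protein that binds insulin-like growth factors, was compared with Irs2 liver by liver. Igfbp1 measured 163, 297, 178, 272 and 324 CPM in flox replicates 1 to 5, and ran from 85.5 to 241 CPM with a median of 126 CPM in LKO livers. Its log2 fold change was -0.73 (95% confidence interval -1.36 to -0.10, adjusted p = 0.635 in edgeR), and -0.51 without flox replicates 4 and 5. In the flox livers, the 3 with the most Igfbp1 were also the 3 with the most Irs2. They were flox replicates 2, 4 and 5, and so include the pair set apart for its neutrophil and macrophage markers. Over the 10 livers without the pair, Pearson's r of log2 CPM was 0.60 (permutation p = 0.0630, and 0.315 adjusted over 5 relations) and Spearman's rho 0.55 (permutation p = 0.106, adjusted 0.528). Leaving out LKO replicates 2 and 4, the farthest from the median of Irs2, r was 0.47, and within the 7 LKO livers it was 0.57. The relation therefore did not pass the adjusted threshold.

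The other 4 relations compared had r nearer to 0 over the 10 livers, a difference that was not tested. Pearson's r was 0.084 for Irs2 with Pck1, the rate-limiting enzyme of gluconeogenesis, -0.13 for Irs2 with Insr, -0.14 for Irs2 with Foxo1 and 0.31 for Irs1 with Irs2 (permutation p from 0.380 to 0.817, and 0.817 adjusted for each). Spearman's rho was -0.042, -0.18, -0.16 and 0.25 (permutation p = 0.918, 0.632, 0.656 and 0.492, adjusted 0.918, 0.820, 0.820 and 0.820). Leaving out the 2 livers farthest from the median of the first gene gave r of 0.61, -0.37, 0.049 and 0.59. These were LKO replicates 2 and 4 for Irs2 with Pck1, Insr and Foxo1. For Irs1 with Irs2 they were LKO replicate 5 and flox replicate 3. The values thus moved with the livers included. LKO replicate 4 had the least Irs2 of all livers, at 15.9 CPM beside 17.7 CPM in LKO replicate 7. It also had the most Pck1, at 6257 CPM, but flox replicate 2 was close to it at 6229 CPM.

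**Figure D3:**
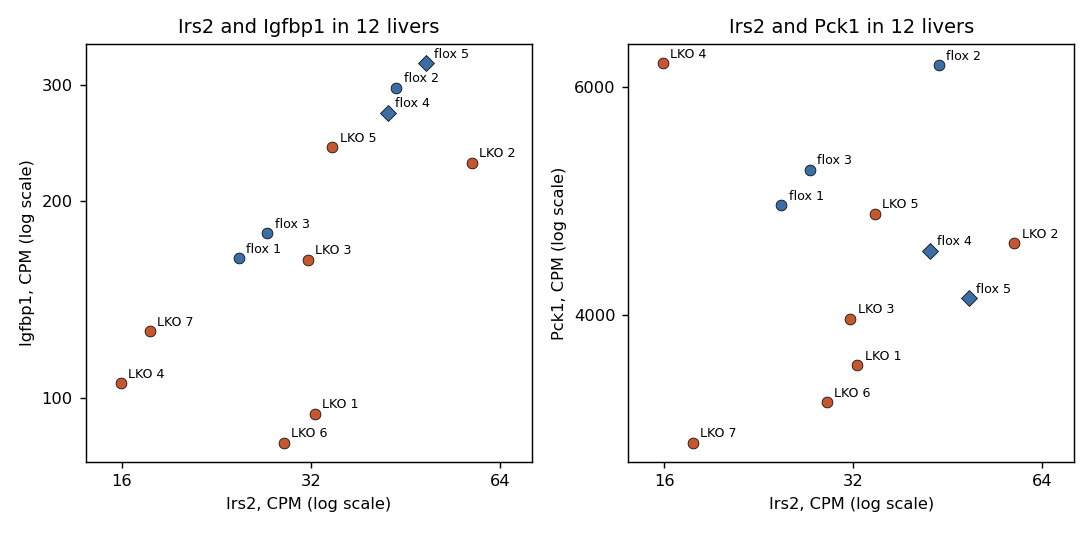
CPM of Irs2 (horizontal axes) against Igfbp1 (left) and Pck1 (right) in each of the 12 livers, on log axes, with flox livers in blue, LKO livers in orange and flox replicates 4 and 5 as diamonds. Livers with more Irs2 tended to have more Igfbp1 (r = 0.60 over the 10 livers without the pair, not past the adjusted threshold), and r was 0.084 for Pck1. Without LKO replicates 2 and 4, r was 0.47 for Igfbp1 and 0.61 for Pck1, and the difference between the 2 relations was not tested.

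Pik3r1, which encodes the p85 alpha regulatory subunit of PI3K and its shorter forms, had the largest positive value of the 9. It measured 90.9, 74.5, 74.9, 78.2 and 88.9 CPM in flox replicates 1 to 5, and 63.9 to 105 CPM with a median of 92.7 CPM in LKO livers. LKO replicate 3 was the lowest of all livers and 4 LKO livers lay above every flox liver. The log2 fold change was 0.13 (95% confidence interval -0.11 to 0.36, adjusted p = 0.799 in edgeR). It stayed between 0.071 and 0.19 over all 19 alternative fits, at 0.15 without flox replicates 4 and 5, and passed in none of them.

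Akt1, the more widely expressed AKT kinase, had the smallest p of the 9 genes, but did not pass. It measured 63.8, 57.8, 66.6, 76.2 and 75.0 CPM in flox replicates 1 to 5, and 50.4 to 62.3 CPM with a median of 59.1 CPM in LKO livers. All 7 LKO livers lay below the flox mean of 67.9 ± 7.73 CPM (SD, n = 5), and 3 lay below the lowest flox liver. With all livers the log2 fold change was -0.22 (95% confidence interval -0.39 to -0.05, unadjusted p = 0.0147, adjusted p = 0.625 in edgeR), which ranked 288 of 12615 by p. The highest livers were flox replicates 4 and 5, the same that held the neutrophil and macrophage transcripts. Without this pair the log2 fold change was -0.11 (95% confidence interval -0.29 to 0.07, adjusted p = 0.944 in edgeR). The part of those cells in the Akt1 level was not tested.

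Akt2, the main AKT kinase of insulin action in liver, varied as little between livers as Insr did. Its level was 122, 124, 119, 126 and 133 CPM in flox replicates 1 to 5, and ran from 111 to 133 CPM with a median of 114 CPM in LKO livers. Of the 7 LKO livers, 5 lay below the lowest flox liver, while LKO replicate 3 was the highest of all at 132.8 CPM. LKO over flox, the log2 fold change was -0.09 (95% confidence interval -0.22 to 0.03, adjusted p = 0.718 in edgeR), and -0.06 without flox replicates 4 and 5. Leaving out LKO replicate 3 gave -0.14, still short of the threshold. The SD of log2 CPM within groups was 0.079, and 2.74% of genes above 10 CPM varied less, a rank likewise not adjusted for counting error (0.034 for Akt2).

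The log2 ratio of Akt2 to Akt1 was 0.88 ± 0.14 (SD, n = 5) in flox and 1.0 ± 0.11 (SD, n = 7) in LKO livers. The difference of 0.12 did not pass the exact permutation test (p = 0.126, adjusted p = 0.447), although 6 of 7 LKO livers lay above the flox mean. Without flox replicate 2 alone it was 0.17 with an adjusted p of 0.0485 in the exact permutation test, and without flox replicates 4 and 5 it was 0.047. Flox replicate 2 held the highest ratio of its group (1.10), and no other single liver left out gave a pass. The adjustment covered the 4 ratios and not the livers left out. Per length the paralogs were nearly equal, with 0.916 to 1.24 times as much Akt2 as Akt1.

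Foxo1, the main FOXO factor of hepatic glucose production, varied by 1.69 times between livers. It measured 95.5, 83.5, 81.7, 74.8 and 62.9 CPM in flox replicates 1 to 5, with flox replicate 5 the lowest of its group. In LKO livers it ran from 60.7 CPM in replicate 3 to 102 CPM in replicate 5, with a median of 76.3 CPM. The log2 fold change was -0.04 (95% confidence interval -0.31 to 0.23, adjusted p = 0.959 in edgeR), and -0.17 without flox replicates 4 and 5. Without flox replicate 1 it was 0.029 and without LKO replicate 3 it was 0.0026, so the direction rested on single livers.

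Foxo3, a second FOXO factor of hepatocytes, measured 60.8, 63.8, 69.6, 64.6 and 60.5 CPM in flox replicates 1 to 5. In LKO livers it ran from 46.6 to 75.7 CPM with a median of 55.4 CPM. Of the 7 LKO livers, 6 lay below every flox liver, and LKO replicate 4 lay above every one. With all livers the log2 fold change was -0.16 (95% confidence interval -0.37 to 0.05, adjusted p = 0.708 in edgeR), -0.18 without flox replicates 4 and 5, and -0.25 without LKO replicate 4. The log2 ratio of Foxo3 to Foxo1 was -0.31 ± 0.22 (SD, n = 5) in flox and -0.43 ± 0.29 (SD, n = 7) in LKO livers, a difference of -0.13 (exact permutation p = 0.447, adjusted p = 0.447). This difference was -0.012 without flox replicates 4 and 5.

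The genes whose log2 CPM followed each of the 9 most closely over the 12 livers are given as a description, since they were picked from 11574 candidates for their likeness. For Irs2 they were Nrp2 (Pearson's r = 0.89) and Cbx2 (0.88), with 0.87 and 0.86 over the 10 livers without the pair. For Irs1 they were Pard6b (0.92) and Ruvbl1 (0.92), and for Insr Rnf2 (0.86) and Aimp1 (0.86). For Grb14 they were Hp1bp3 (0.93) and 2510002D24Rik (0.89), and for Pik3r1 Trmt11 (0.91) and Gpc4 (0.90). For Akt2 they were Gss (0.84) and Ang (0.84), with 0.74 and 0.80 over the 10 livers. For Foxo1 they were Tapt1 (0.90) and Pank3 (0.88), and for Foxo3 Zfp740 (0.88) is given. For Akt1 they were Spon1 (0.95) and Cyfip2 (0.92), with 0.88 and 0.76 over the 10 livers. None of the genes named here is another of the 9.

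Other genes of the pathway were gathered in 7 lists with 114 entries, of which 104 were tested, 6 did not pass the low-count filter and 4 were not matched. Of the 104, 0 passed in either direction in edgeR, and 13 had an unadjusted p under 0.05 (1 higher and 12 lower). DESeq2 called 0 of the 91 to which it gave an adjusted p. In all genes tested, 3.49% were higher and 4.15% lower at that unadjusted level. Fold changes were below 0 for 72 of the 104 (69.2%), with a median of -0.07 on the log2 scale, beside 51.7% and -0.0060 over all genes. Without flox replicates 4 and 5 they were below 0 for 75 of the 104, with a median of -0.08, beside 6178 of 12601 and 0.0038 over all genes. The lists were drawn up with earlier results of these livers known, so this lean is a description. In the values that follow, ± gives the SD over 5 flox and 7 LKO livers, in that order.

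Of 16 tested receptor-proximal genes, 13 were below 0, with a median log2 fold change of -0.11 (-0.05 without the pair). Socs3, a cytokine-induced inhibitor that also targets IRS proteins, measured 14.8 ± 4.41 CPM (SD, n = 5) in flox and 9.29 ± 2.48 CPM (SD, n = 7) in LKO livers (log2 fold change -0.67, adjusted p = 0.619 in edgeR, and -0.34 without the pair). Ptpn1, the phosphatase PTP1B that dephosphorylates the receptor, measured 46.9 ± 9.79 and 38.8 ± 1.70 CPM, and the adaptor Grb2 34.4 ± 5.31 and 29.6 ± 2.23 CPM. Their log2 fold changes of -0.28 and -0.22 were both -0.05 without flox replicates 4 and 5. That pair held the high neutrophil and macrophage marker sums, whose part in these values was not tested.

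Of 12 tested PI3K subunits and lipid phosphatases, 11 were below 0, with a median of -0.14 (-0.10 without the pair). Pik3cd, the catalytic subunit typical of leukocytes, measured 4.34 ± 4.47 CPM among flox livers and 2.13 ± 0.603 CPM among LKO livers, and its log2 fold change of -1.03 became 0.83 without the pair. Inppl1, the lipid phosphatase SHIP2, measured 49.6 ± 2.84 and 43.4 ± 5.36 CPM (a log2 difference of -0.19, or -0.16 without the pair). Inpp5k, another inositol phosphatase, measured 13.5 ± 0.95 and 12.1 ± 1.30 CPM (-0.16, and -0.09 without the pair). Adjusted p-values of these genes in edgeR were 0.651 to 0.704.

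None of the genes that activate or inhibit AKT, and none of its tested substrates, passed. Of 15 AKT regulators 11 were below 0 (median -0.11), and 12 without the pair (median -0.08). Of 15 AKT substrates and mTORC1 genes 10 were below 0 (median -0.04), and 13 without the pair (median -0.09). The kinase Mtor measured 98.5 ± 9.62 CPM in controls and 90.7 ± 6.68 CPM in LKO, Mapkap1, a subunit of mTORC2, 50.1 ± 4.99 and 45.7 ± 4.03 CPM, and the AKT phosphatase Phlpp2 3.85 ± 0.81 and 3.15 ± 0.41 CPM. Foxk1, a forkhead factor controlled by insulin, measured 33.9 ± 2.34 and 30.1 ± 2.31 CPM, with a log2 fold change of -0.17 that was -0.22 without the pair. Tsc1, an inhibitor of mTORC1 signalling, measured 32.7 ± 5.21 and 28.9 ± 3.15 CPM. Tbc1d1, a Rab GTPase activating protein, measured 9.08 ± 5.33 and 7.17 ± 2.08 CPM, and its log2 fold change of -0.35 became 0.38 without the pair. Adjusted p-values in edgeR ran from 0.640 to 0.824 for these 6 genes.

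Of 15 tested FOXO relatives and partners 8 were below 0, with a median of -0.04, and 11 without the pair, with a median of -0.07. Foxo4 measured 35.1 ± 1.45 CPM in controls and 32.5 ± 2.09 CPM in LKO, and Crtc2, a coactivator of CREB in gluconeogenesis, 35.9 ± 3.54 and 32.1 ± 1.39 CPM. Their log2 fold changes were -0.11 and -0.16, and -0.13 and -0.21 without the pair (adjusted p = 0.701 and 0.650 in edgeR with all livers). Sgk1, a kinase related to AKT that also phosphorylates FOXO proteins, measured 28.1 ± 8.19 and 23.2 ± 2.94 CPM. Its log2 fold change of -0.28 turned to 0.026 without the pair.

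The FOXO target genes held no call either. Of 21 tested targets, 14 were below 0, with a median of -0.08 (-0.13 without the pair), 4 were lower and 1 higher at an unadjusted p under 0.05, and 0 passed. Pck1 measured 4973 ± 806 CPM in controls and 4261 ± 1052 CPM in LKO. Its log2 fold change of -0.22 was -0.35 without the pair, -0.14 without flox replicate 2 and -0.35 without LKO replicate 4. G6pc, the catalytic subunit of glucose-6-phosphatase, measured 446 ± 89.9 and 470.3 ± 126 CPM (0.08, and -0.07 without the pair). Fbxo32, a ubiquitin ligase gene known as a FOXO target in muscle, measured 6.19 ± 2.06 and 3.80 ± 1.08 CPM (-0.71, and -0.39 without the pair). Txnip, an inhibitor of thioredoxin and of glucose uptake, measured 215 ± 43.4 and 166 ± 23.3 CPM (-0.37, and -0.15 without the pair). The apolipoprotein gene Apoc3, which inhibits triglyceride clearance, measured 940.0 ± 64.9 and 1112 ± 96.7 CPM (0.24, and 0.18 without the pair). The adjusted p of these 5 genes in edgeR was 0.623 to 0.942.

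Of 10 tested genes that insulin induces, 5 were below 0 and 5 above, with a median of -0.03, and 0.10 without the pair. Srebf1, which encodes the lipogenic factor SREBP1, measured 35.1 ± 8.996 and 40.4 ± 13.3 CPM, and Acacb, an acetyl-CoA carboxylase, 182 ± 25.9 and 143 ± 34.2 CPM. Elovl6, a fatty acid elongase, measured 50.4 ± 25.6 and 38.6 ± 13.4 CPM, and its log2 fold change of -0.38 became 0.27 without the pair. Thrsp, a regulator of lipogenesis, measured 6.60 ± 2.96 and 17.9 ± 18.7 CPM (log2 fold change 1.42, adjusted p = 0.661 in edgeR), with LKO livers from 4.90 to 55.2 CPM. Of the 7 LKO livers, 4 lay below the flox mean, the LKO median of 6.11 CPM lay below the flox median of 6.39 CPM, and the log2 fold change was 0.81 without LKO replicate 4.

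**Figure D4:**
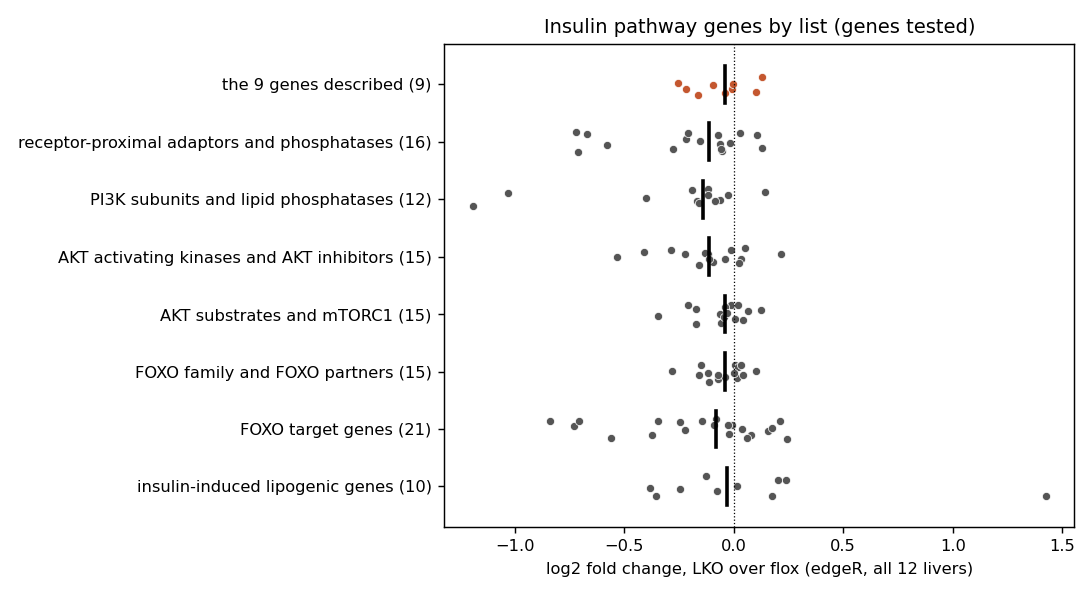
Log2 fold change of LKO over flox livers (horizontal axis) of each tested gene, for the 9 genes described (orange) and the 7 pathway lists (grey), with the number of genes tested beside each list and the median as a black bar. The medians lie between -0.14 and -0.03, no gene passed the threshold, and 82 of the 104 pathway genes lie within 0.25 of 0, as do 9685 of all 12615 genes tested.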

How the data were processed

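Per the labels' protocols, TRIzol RNA of 12 livers, each from 1 mouse, went into NEBNext Ultra libraries. Whole-number counts and FPKM values of each gene were deposited by the authors. The submitters' processing notes name HISAT2 2.0.5 with build GRCm39, and featureCounts 1.5.0-p3 (also fastp, CASAVA 1.8, DESeq2 1.20.0). The deposited FPKM was found to be count over gene length and over 1 effective size per library.

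Genes were filtered with filterByExpr, scaled by TMM and fitted with edgeR 4.0.16 (robust quasi-likelihood, no covariate) in R 4.3.3. Log2 CPM used a prior count of 2. Correlation p-values used 100000 permutations. On simulated data for this comparison (12506 genes tested), 65, 67 and 64 genes were changed 1.5-fold, 2-fold and 3-fold. Of these, 44.6%, 74.6% and 84.4% were recovered, and 1.48% of calls were false. An adjusted threshold is easier to pass when many genes change, and only 1 gene passed in the data. The rates therefore do not give the recovery of a few changed genes, which was not simulated. Alternatives were other scaling factors, no filter, DESeq2 1.42.0, limma 3.58.1 on log2(FPKM + 0.1), a replicate block and left-out livers.

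Genes, lists and the left-out pair were chosen with earlier results of these data known. The text names all 9 genes, the 3 smallest p of each list, 5 fixed genes and the 2 closest genes to each of the 9, except for some results that are not reported here. Each of the 31 pairs of libraries within a group differed beyond counting error, with a chi-square of 8.47 to 86.5 for each degree of freedom.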

Additional observations from a re-analysis of the deposited data

Results flagged for a closer look

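In 34 sets of values (13 genes and 4 ratios in each group), 2 livers lay far from the rest of their group by Dixon's criterion, where chance flags about 1 in 20 sets. Akt2 was 132.8 CPM in LKO replicate 3, where the next LKO liver was at 119 CPM. The log2 ratio of Grb14 to Insr was -1.71 in flox replicate 2 and -2.39 to -2.34 in the other 4 flox livers.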

How the results depend on the processing

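Of the 9 genes and the pathway lists, 0 genes passed in each of the 19 alternatives. Over all genes, 1 passed with all livers, 24 in DESeq2 and 2 with the replicate number as a block, and leaving out single livers gave 1 to 2 (2 without LKO replicate 7). The replicate numbers did not pair the livers: same-numbered deviations correlated at -0.29 to 0.10, and 0 of 5 flox livers correlated best with their own number. The fold change of Irs1 turned to 0.053 under the block and to 0.0015 without the low-count filter, and ran from -0.10 to 0.12 over single livers left out. The same range was -0.13 to 0.029 for Foxo1, -0.044 to 0.044 for Insr and -0.023 to 0.18 for G6pc. Without flox replicates 4 and 5 the sign turned for Pik3cd (0.83), Tbc1d1 (0.38), Sgk1 (0.026), Elovl6 (0.27), G6pc (-0.072) and the ratio of Irs2 to Irs1 (0.038). Over single livers left out, the difference ran from 0.080 to 0.17 for the ratio of Akt2 to Akt1 and from 0.083 to 0.25 for that of Grb14 to Insr, each passing only without flox replicate 2 (adjusted p = 0.0485). Beyond the values given, the cause was not tested. With all 12 livers, r for Irs2 and Igfbp1 was 0.70 (adjusted p = 0.0595, permutation test). Fits without the pair hold fewer livers. Depth limits genes of few reads, such as Pik3cd at 6 to 172 counts per library.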

Other observations

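LKO replicate 4 combined the least Irs2 of all livers (15.9 CPM) with the most Foxo3 (75.7 CPM), Pck1 (6257 CPM) and Srebf1 (58.0 CPM). The next livers were near it in Irs2 (17.7 CPM), Pck1 (6229 CPM) and Srebf1 (54.7 CPM). This liver was picked after its values were seen, so the values are a description.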
